A study of Rangifer tarandus with 4 samples.

Results

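Chemokine receptors are membrane-spanning receptors coupled to G proteins, and they steer leukocytes along gradients of small secreted proteins, the chemokines. Many of their genes lie side by side on 1 chromosome, and in blood they mark different cells: CCR2 and CCR1 are known from monocytes, CCR3 from eosinophils, XCR1 from the dendritic cells that present antigen to killer T cells, and CCR9 from lymphocytes that home to the gut and from plasmacytoid dendritic cells. The genes described here are these 5 receptors, CCR1, CCR2, CCR3, CCR9 and XCR1, taken from a cattle (Bos taurus) annotation on assembly ARS-UCD1.2 as the gene entries of chromosome 22 that carry one of those symbols. Each symbol matched 1 gene, so they are 5 of the 21880 genes of the annotation and 5 of the 544 genes on that chromosome.

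The annotation was deposited with a single-cell RNA series on reindeer (Rangifer tarandus), in which peripheral blood mononuclear cells were taken on day 3 after a wound. Blood came either from the saphenous vein, given as the supply of back skin (2 libraries), or from the distal antler velvet (2 libraries), and about 12000 cells were loaded for each. Neither genotype, age nor any treatment beyond the wound is named in the labels, and whether libraries of the 2 sites share an animal is not stated there. Counts per cell were not used here. Nothing is therefore said of expression, depth or a difference between sites, and the labelled cells were not checked against their markers. The question that the annotation can answer is how the receptor genes are arranged and how far each model reaches beyond its coding sequence, since the libraries read transcripts from the 3′ end. All positions are cattle positions, counted from 1, and each value is a property of a gene model, with no replicate and no error.

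The 5 genes stood in the order CCR2, CCR3, CCR1, XCR1 and CCR9 along the chromosome, within 387695 bases. CCR2 (ENSBTAG00000013586) lay at chr22:53043751-53046271 on the minus strand. CCR3 (ENSBTAG00000001338) followed at chr22:53135114-53136190, also on the minus strand. CCR1 (ENSBTAG00000019428) lay at chr22:53225174-53231223 and XCR1 (ENSBTAG00000020019) at chr22:53319181-53320182, both on the plus strand. CCR9 (ENSBTAG00000031348) closed the row at chr22:53413330-53431445 on the minus strand. In all, 3 of the 5 were on the minus strand (CCR2, CCR3 and CCR9), against 44.7% of the genes of chromosome 22. CCR3 and CCR1 were thus transcribed away from each other, XCR1 and CCR9 towards each other, and the pairs CCR2 with CCR3 and CCR1 with XCR1 in the same direction.

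The 4 gaps between consecutive receptors were of similar size, from 87957 to 93147 bases. CCR2 and CCR3 were 88842 bases apart with no gene model between them. CCR3 and CCR1 were 88983 bases apart with 1 gene between them, and CCR1 and XCR1 were 87957 bases apart, also with 1 gene between them. XCR1 and CCR9 were 93147 bases apart and enclosed 2 genes. These gaps depend on which receptors are counted: CXCR6, a receptor of lymphocytes for a membrane-bound chemokine, is not among the 5 and lay between XCR1 and CCR9. Counted over every gene model of the stretch, the distances between neighbours were uneven. They ran from 7475 bases (CCR1 to ENSBTAG00000052050) to 88842 bases (CCR2 to CCR3).

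**Figure D1:**
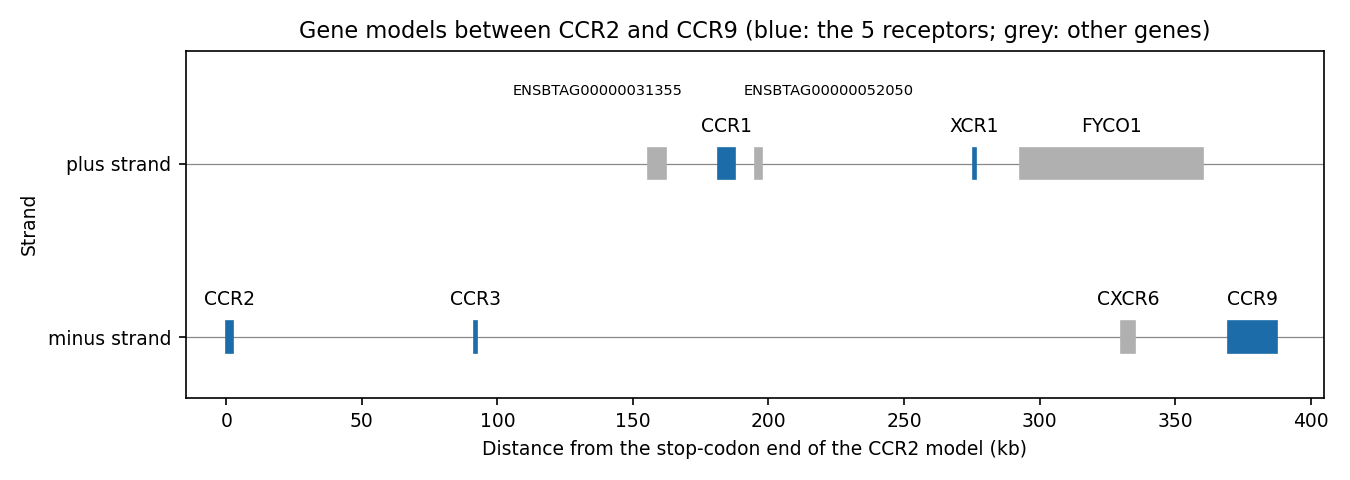
Gene models from CCR2 to CCR9 drawn to scale, with distance in kilobases on the horizontal axis and the strand on the vertical axis; blue boxes are the 5 receptors and grey boxes the 4 other genes. CCR2, CCR3 and CCR9 sit on the minus strand and CCR1 and XCR1 on the plus strand, with gaps of 88.0 to 93.1 kb between consecutive receptors.

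The stretch held 9 gene models, the 5 receptors and 4 other genes. The receptor exons took up little of it: together they covered 10117 bases, or 2.61% of the stretch. None of the 5 models overlapped another gene, and none shared an exon base with one. The nearest gene with a symbol past CCR9 was LZTFL1, a regulator of protein traffic into cilia, 39880 bases away at chr22:53471326-53489385 on the plus strand.

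The models fell into 2 kinds. CCR2, CCR3 and XCR1 consisted of coding sequence only, from the first base of the start codon to the last base of the stop codon. CCR1 and CCR9 carried untranslated regions (UTRs) on both sides. In counts, 3 of 5 genes had no 3′ UTR, against 20.2% of 16808 protein-coding genes with a symbol, and 3 of 5 had no 5′ UTR, against 19.4%. The same 3 genes lacked both, against 12.7% of genes with a symbol. Absence on one side commonly goes with absence on the other in this annotation: of the genes with a symbol and no 3′ UTR, 62.8% had no 5′ UTR either. These are shares over protein-coding genes with a symbol, set beside 5 chosen genes without a test. Over all 21880 genes of the annotation absence was more common: 7561 had no 3′ UTR, 7359 no 5′ UTR and 6133 neither. Every one of the 6 transcripts of the 5 genes had an annotated start codon and stop codon and a coding length divisible by 3. By these annotated features the models without UTRs were complete as coding sequences, but no sequence was read.

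CCR3, the receptor for eotaxins, and XCR1, the receptor for XCL1, had the simplest models, each with 1 exon and 1 transcript. The CCR3 exon measured 1077 bases with the stop codon and encoded 358 residues. The XCR1 exon measured 1002 bases and encoded 333 residues, the shortest protein of the 5. In both genes the whole model was exon, with no annotated base before the start codon or after the stop codon.

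CCR2, the receptor by which monocytes follow CCL2, also lacked UTRs, but its coding sequence was split. Exon 1 (53046267 to 53046271) was only 5 bases long and held the start codon and 2 further bases, and exon 2 (53043751 to 53044765) held 1015 bases with the stop codon. An intron of 1501 bases separated them, and the protein had 339 residues. Exons as short as this at the start of a model were rare: of the genes with a symbol, 1.29% (217 of 16808) had a transcript whose first exon was at most 5 bases long, and 74 of those 217 genes had no 5′ UTR, as in CCR2.

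CCR1, a receptor for CCL3 and CCL5 on monocytes and other myeloid cells, had 2 exons but only 1 that codes. Exon 1 (53225174 to 53225381) held 208 bases of 5′ UTR and nothing else. After an intron of 3396 bases, exon 2 (53228778 to 53231223) held the remaining 65 bases of 5′ UTR, the whole coding sequence for 355 residues, and 1313 bases of 3′ UTR. The exon count of CCR1 therefore came from its 5′ UTR and not from its coding sequence. Its 3′ UTR was longer than that of 78.6% of the genes with a symbol that had one, whose median was 649 bases.

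CCR9, the receptor for CCL25, had the longest model, 18116 bases, and was the only one of the 5 with more than 1 transcript. The other 4 had 1 transcript each, as had 53.9% of genes with a symbol. Both CCR9 transcripts had 3 exons, of which 2 code and 1 holds only UTR, and both encoded the same number of residues, 367. The coding part was the same in each: 21 bases in a 45-base exon (53424471 to 53424515), then, past an intron of 6862 bases, 1080 bases and the stop codon in the next exon.

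The CCR9 transcripts differed at both ends. The transcript ENSBTAT00000044420 began with a 132-base exon of 5′ UTR alone (53431314 to 53431445), followed by an intron of 6798 bases, and had 156 bases of 5′ UTR in all. Its 3′ UTR of 1091 bases ran on without a break from the stop codon in the last exon. The transcript ENSBTAT00000078248 began at the 45-base exon with 24 bases of 5′ UTR. It was spliced 15 bases after the stop codon, skipped an intron of 1168 bases, and ended in a 2013-base exon of 3′ UTR alone (53413330 to 53415342), for 2028 bases of 3′ UTR in all.

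The 3′ UTRs of the 2 CCR9 transcripts shared only those 15 bases, and their 3′ ends were 2105 bases apart. Together they covered 3104 bases. An intron after the stop codon was annotated in 1 of the 5 receptors, CCR9, and in 5.73% of genes with a symbol. An exon that holds only UTR was present in 2 of 5 receptors, CCR1 and CCR9, against 35.8% of genes with a symbol. An intron before the start codon was present in the same 2 genes, against 32.2%. Of the 18 further chemokine receptors described below, 9 had an exon of UTR alone and 9 an intron before the start codon. An intron after the stop codon was found in 0 of the 18.

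**Figure D2:**
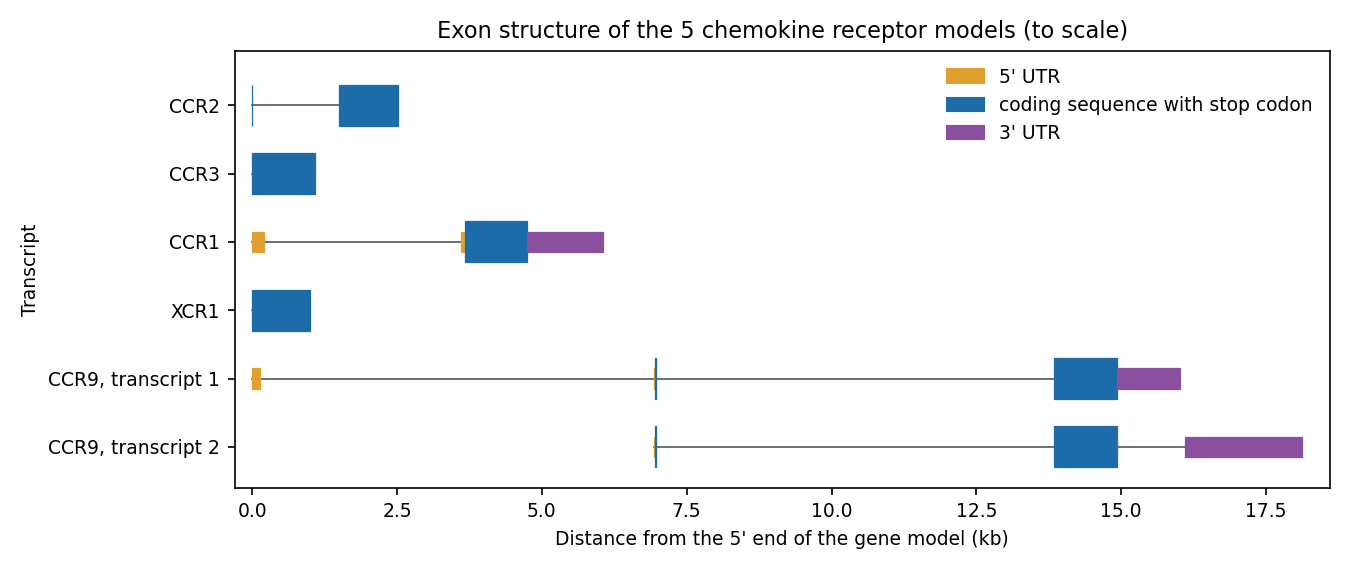
Exon structure of the 6 transcripts of the 5 receptors, drawn to scale from the 5′ end of each gene model in kilobases; tall blue blocks are coding sequence with the stop codon, low orange blocks 5′ UTR, low purple blocks 3′ UTR and lines introns. CCR2, CCR3 and XCR1 show coding sequence only, CCR1 shows 1 exon of 5′ UTR alone, and the CCR9 transcripts, ENSBTAT00000044420 above ENSBTAT00000078248, end in different 3′ UTRs.

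Coding sequence lay almost wholly in 1 exon in all 5 receptors. CCR1, CCR3 and XCR1 had 1 coding exon, or 3 of 5, against 6.78% of genes with a symbol, which had a median of 8 coding exons. In CCR2 the larger exon held 99.5% of the coding bases and in CCR9 98.1%. At least 99% of the coding bases lay in 1 exon in 4 of 5 receptors, against 7.13% of genes with a symbol. This is not particular to the 5: it also held for 10 of the 18 further chemokine receptors described below. The coding lengths were alike, from 999 to 1101 bases without the stop codon, or 333 to 367 residues.

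Having 1 coding exon and lacking a 3′ UTR went together across the annotation. Among genes with a symbol and 1 coding exon, 46.8% (534 of 1140) had no 3′ UTR, and among those with more coding exons 18.3% did. Among the receptors, CCR3 and XCR1 had 1 coding exon and no 3′ UTR, CCR1 had 1 coding exon and a long 3′ UTR, CCR2 had 2 coding exons and no 3′ UTR, and CCR9 had 2 and the longest 3′ UTR.

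Models without UTRs also occurred among other chemokine receptors. A list of 18 further receptors was matched in full, and it includes CMKLR1, a chemokine-like receptor for chemerin, which is not a chemokine. Of the 18, 3 had no 3′ UTR, namely CCR8, CCR10 and CMKLR1, beside 20.2% of all genes with a symbol. Those 3 also had no 5′ UTR, and ACKR1, a receptor that binds chemokines without signalling through G proteins, had a 3′ UTR but no 5′ UTR. The 15 that had a 3′ UTR ranged from 45 bases in CXCR2 to 1899 bases in CX3CR1, with a median of 538 bases. The 2028 bases of CCR9 lay above that range. The 1313 bases of CCR1 lay below CX3CR1, CXCR5 (1617 bases) and CCR4 (1350 bases), and above the other 12. Whether the 5 receptors differ from the list was not tested, because both were chosen by name.

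**Figure D3:**
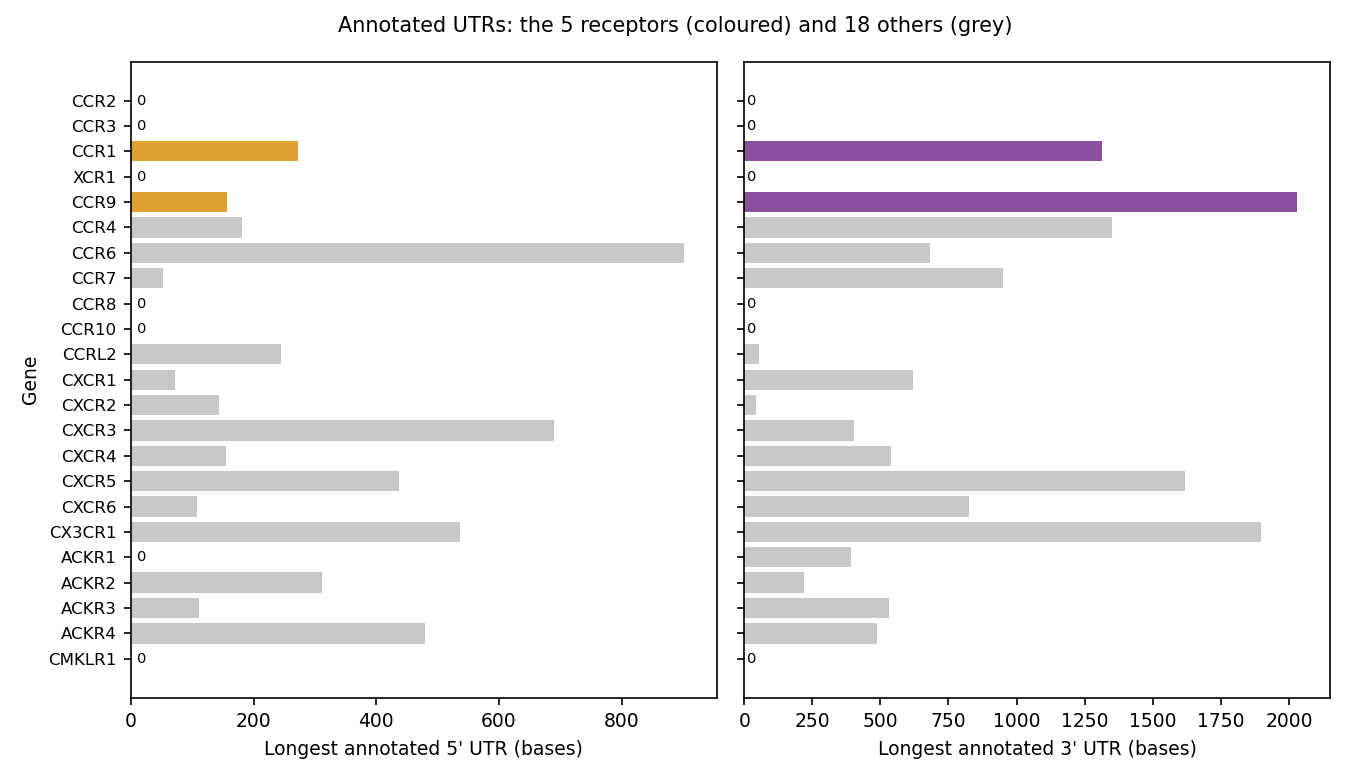
Longest annotated 5′ UTR (left) and 3′ UTR (right) in bases, 1 bar per gene, for the 5 receptors (coloured) and the 18 listed receptors (grey). A printed 0 marks a gene with none. CCR2, CCR3 and XCR1 have 0 on both sides, as have CCR8, CCR10 and CMKLR1, and the 3′ UTR of CCR9 (2028 bases) is the longest bar on the right.

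The split of the coding sequence seen in CCR2 and CCR9 was also present elsewhere in the list. Of the 18, 7 had 1 coding exon and 11 had 2, counted in the transcript with the longest coding sequence. Of the 11, 8 had only 3 to 57 coding bases in the first coding exon, taken as the fewest over all transcripts of a gene. UTR bases in that exon are not counted. Among them were CXCR2 with 3 bases, CCR6 with 9 bases and CXCR4, the receptor for CXCL12, with 15 bases. CCR2 with 5 coding bases and CCR9 with 21 lay within the range of 3 to 57. In CCR2 these 5 bases were the whole exon, and in CCR9 the 21 were part of a 45-base exon. CCR7, also among the 8, had 2 transcripts and a value of 10 bases. No exon in either CCR7 transcript held more than 94.7% of the coding bases. Its 10 bases are therefore not from the transcript in which 2 coding exons were counted. The other 3 of the 11 were CX3CR1 with 138 bases, ACKR2 with 148 bases and ACKR1 with 612 bases. A first coding exon of at most 21 coding bases, the value of CCR9, was found in 11.3% of the genes with a symbol that had more than 1 coding exon.

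Of the 18 receptors, 6 lay on chromosome 22, and 2 of these were inside or close to the stretch. CXCR6 (chr22:53373617-53378958, minus strand) lay inside the stretch, and CCRL2, an atypical receptor that presents chemerin, lay 43518 bases before CCR2 at chr22:52998333-53000232 on the minus strand. The other 4, ACKR2, CCR8, CX3CR1 and CCR4, were 38.1 to 45.7 megabases away. CXCR6 was nested in an intron of 19214 bases of FYCO1, an adaptor of autophagosome transport on the opposite strand, and shared no exon base with it. Like CCR1, CXCR6 had 1 coding exon, 1 exon of 5′ UTR alone, and UTRs on both sides, of 107 and 825 bases.

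The gene without a symbol between CCR3 and CCR1, ENSBTAG00000031355 (chr22:53199438-53206002, plus strand), had a layout close to that of CCR1. Both had 1 exon of 5′ UTR alone followed by an exon with the whole coding sequence. The coding sequence stood at 361 residues against 355 in CCR1, the 3′ UTR at 1287 against 1313 bases, the 5′ UTR at 385 against 273 bases, and the model length at 6565 against 6050 bases. It ended 19171 bases before CCR1 begins, on the same strand. The other gene without a symbol, ENSBTAG00000052050 (chr22:53238699-53241300, plus strand), lay 7475 bases past CCR1. It had 1 exon, 738 residues and a 3′ UTR of 361 bases. No sequence was compared, so the identity of neither gene is known here.

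The distance from the 3′ end of each model to the next gene on the same strand differed widely among the receptors. After CCR1 it was 7475 bases, after CCR2 11207 bases and after XCR1 16207 bases, where FYCO1 begins. It was 34371 bases after CCR9, up to CXCR6, and 88842 bases after CCR3, up to CCR2. The median over 16768 genes with a symbol and a neighbour was 47393.5 bases, so CCR3 lay above it and the other 4 below. For the 3 receptors without a 3′ UTR, this distance starts at the stop codon, and the annotation assigned none of it to a gene on that strand. With genes of either strand counted, the distance after CCR9 was 9401 bases, up to FYCO1, and it was the same for the other 4. The median was then 11150 bases, which CCR2, XCR1 and CCR3 exceeded.

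**Figure D4:**
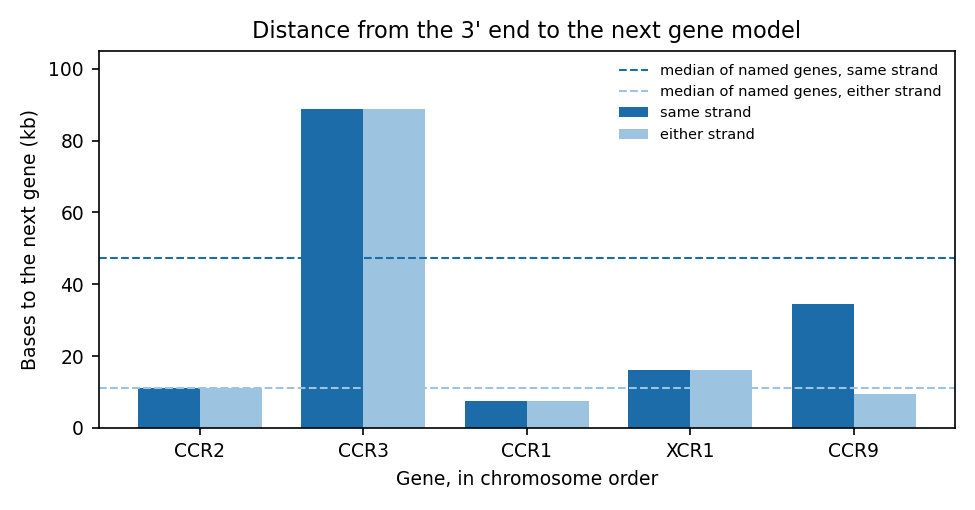
Distance in kilobases from the 3′ end of each receptor model to the next gene on the same strand (dark bars) and on either strand (light bars), with dashed lines at the medians of genes with a symbol. CCR3 has the longest distance at 88842 bases and CCR1 the shortest on the same strand at 7475 bases.

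The chemokines that bind these receptors were annotated on other chromosomes. Of 15 listed ligands, 11 were matched by symbol. CCL2, CCL3, CCL4, CCL5, CCL8, CCL11 and CCL14 lay on chromosome 19, and CCL24 and CCL26 on chromosome 25. All 11 matched ligands had a 5′ UTR and a 3′ UTR, as had 2 of the 5 receptors (CCR1 and CCR9) and 73.1% of genes with a symbol; the difference was not tested. XCL1, the ligand of XCR1, had 3 coding exons and a 3′ UTR of 226 bases, beside 1 exon and no UTR in its receptor. CCL25, the ligand of CCR9, had 5 coding exons and a 3′ UTR of 392 bases, beside up to 2028 bases in its receptor. No gene entry carried the symbols CCL7, CCL13, CCL23 or XCL2, which were left out.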

How the data were processed

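The file used was the gene annotation that the authors deposited for the series, with 1020224 feature lines on ARS-UCD1.2 (build per the file headers). It gives the first and last base of each feature, which are values of no sample. The submitters' processing notes name the tools Seurat, STAR and Cell Ranger 3, but not how reindeer reads were counted with cattle models.

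Genes were matched by exact symbol. UTR lengths are sums of annotated segments without the stop codon, the largest over transcripts. An exon counts as coding if it holds a coding or stop codon base. Coding exons are the fewest over transcripts for shares over all genes. With equal coding lengths, the transcript with more exon bases was taken as the longest. Gaps count the bases strictly between models. Background shares are over protein-coding genes with a symbol, the receptors included. The genes named are the 5 receptors, genes between and beside them, and fixed lists of receptors and ligands; not every gene taken by the rule is reported. Members and lists were chosen with earlier results of these data known, and no test was made. The planned comparison of antler with back and the protein identities were not run, as neither counts nor protein sequences were used here. The reader was tested on a simulated annotation: 6 measures came out exactly for 2000 of 2000 genes, and the downstream distance for 1998 of 1998 with a neighbour. Python 3.11.15, pandas 2.3.3, NumPy 2.4.6 and matplotlib 3.10.9 were used.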

Additional observations from a re-analysis of the deposited data

How the results depend on the processing

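Alternatives changed the minimum UTR length, the transcript read, the strand and the start of the downstream distance, and whether UTRs count in the span. The counts of receptors without a 3′ UTR (3), without a 5′ UTR (3), with 1 coding exon (3) and with an exon of UTR alone (2) were the same under each alternative tried for them. These alternatives left little room for change. CCR2, CCR3 and XCR1 had no UTR bases at all, and only CCR9 had more than 1 transcript. The CCR9 transcript taken as the longest had 24 bases of 5′ UTR, and the minimum of 50 bases was not applied to that transcript alone. The background did move: genes with a symbol lacking a 3′ UTR of at least 200 bases made up 33.8%, against 20.2% lacking any, and 28.1% lacked one in the transcript with the longest coding sequence. For the 5′ UTR the share was 29.3% at a minimum of 50 bases and 27.0% in that transcript, against 19.4%. An exon of UTR alone was present in 25.3% in that transcript, against 35.8%. On the minus strand, the share was 44.1% over genes of chromosome 22 with a symbol, against 44.7% over all its genes. From coding sequence alone the receptors spanned 380741 bases instead of 387695 bases, because the 5′ UTR of CCR9 ends the stretch. Adding the stop codon gave 3′ UTRs of 1316 bases in CCR1 and 2031 bases in CCR9. The union over transcripts, chosen after seeing the data, gave 3104 bases in CCR9 and changed none of the other 4. From the stop codon, the distance to the next gene was 8788 bases for CCR1 and 37567 bases for CCR9. No paired analysis was possible because the annotation holds no values of samples. No depth is involved in these values. A missing UTR is a property of the model, and says nothing of the transcript in cattle or reindeer.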
